A study of Homo sapiens with 18 samples.

Results

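A group of 10 early-response and stress genes was examined: the immediate early response genes IER2, IER3, IER5 and IER5L, the growth arrest and DNA damage genes GADD45A, GADD45B and GADD45G, and PHLDA1, TRIB1 and SGK1. They were taken from the table of gene counts by gene name, as early-response genes outside the AP-1, EGR, KLF and DUSP families. Of the 10 genes, 9 have a row among the 23622 genes of the table, and 8 passed the filter on low counts and were among the 15760 genes tested. SGK1 had too few counts for the test, and the expression of GADD45G was not analysed here. RNA-seq and ATAC-seq (sequencing of accessible chromatin) were performed in A2780 cells, a human ovarian cancer line sensitive to cisplatin, and in Acis cells (A2780cis), its resistant derivative, which was kept in culture with 1 µM cisplatin added every 3 passages. Cisplatin is a platinum drug that forms bulky adducts on DNA. Cells of each line were either left untreated (A2780 control, Acis control) or kept for 3 h in medium with 200 µM cisplatin (A2780 cisplatin, Acis cisplatin), with 3 RNA-seq libraries in each of the 4 groups. The comparisons ask how the genes changed after cisplatin in each line, how the lines differed without and with the drug, and whether the change differed between the lines.

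Early-response genes are short genes that growth signals and stress switch on within minutes to hours, mostly without new protein synthesis. The GADD45 proteins are small partners without enzyme activity that bind MAP3K4 and so act on the p38 and JNK kinases, and that also bind PCNA, p21 and the CDK1 and cyclin B1 complex. GADD45A is a known target of p53, the transcription factor stabilized by DNA damage. The IER proteins are regulators without enzyme activity of their own. PHLDA1 is a pleckstrin homology-like domain protein linked to cell death, TRIB1 is a pseudokinase that brings substrates such as C/EBPα to the ubiquitin ligase COP1, and SGK1 is a serine/threonine kinase activated through PDPK1 and mTORC2.

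Library totals ran from 4130644 to 5072216 counts. The cells of a group were plated in triplicate, so p-values measure the spread between parallel cultures of a line, which may be technical. In 6 of the 12 pairs of replicates the counts differed by less than counting noise (all 3 pairs of A2780 control among them). They were kept as separate replicates. A2780 and Acis are each represented by a single line, and a difference between them cannot be told apart from any other difference between these cultures. Of 10 markers of epithelial and ovarian carcinoma cells, KRT19, CDH1, MUC16, PAX8, WT1 and ESR1 had no row in the table. The other 4 summed to 1079 to 1132 normalized counts in untreated and 791 to 931 in treated A2780 libraries, and to 135 to 158 and 146 to 154 in Acis. PAX2, most of that sum in A2780 (mean 1065 in controls), was at 0 in every Acis control library. KRT18 went the other way, with means of 25.5 in A2780 control and 143 in Acis control, most of the sum in Acis. KRT8 (15.6 and 4.05) and EPCAM (3.55 and 0.733) had few counts and lower means in Acis control. The 4 fibroblast markers summed to 1599 to 1747 and 1236 to 1419 in untreated and treated A2780 libraries and to 11.7 to 27.7 and 15.7 to 25.5 in Acis. Of the blood cell markers only CD68 had a row (at most 6.56), and none of the 3 endothelial markers had a row. The part of these differences in the results was not tested.

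Promoter sequences are shown for 5 of the genes, which differed in their response to cisplatin in the lines: IER5 and GADD45B, which rose much more in A2780, IER5L and IER2, whose responses differed less, and PHLDA1, which rose more in Acis. Each is the 150 bases before the transcription start, read 5′ to 3′ on the strand of the gene from RefSeq (GRCh38.p14). The stretches are chr1:181088550-181088699 (plus strand) for IER5, chr19:2475977-2476126 (plus strand) for GADD45B, chr9:129178262-129178411 (minus strand) for IER5L, chr19:13150261-13150410 (plus strand) for IER2 and chr12:76031777-76031926 (minus strand) for PHLDA1. Capitals mark CCAAT boxes (CCAAT), GC boxes (GGGCGG), E-boxes (CACGTG) and TATA boxes (TATAAA, and as a variant TATATA) on either strand.
IER5: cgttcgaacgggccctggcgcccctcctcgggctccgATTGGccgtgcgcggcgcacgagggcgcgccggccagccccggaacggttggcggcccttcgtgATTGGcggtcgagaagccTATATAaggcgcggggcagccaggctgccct
GADD45B: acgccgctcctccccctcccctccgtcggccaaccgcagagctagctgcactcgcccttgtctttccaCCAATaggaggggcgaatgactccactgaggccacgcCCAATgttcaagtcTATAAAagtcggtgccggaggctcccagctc
IER5L: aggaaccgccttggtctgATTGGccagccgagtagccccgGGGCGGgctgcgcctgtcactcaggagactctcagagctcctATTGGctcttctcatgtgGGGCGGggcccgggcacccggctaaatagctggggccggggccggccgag
IER2: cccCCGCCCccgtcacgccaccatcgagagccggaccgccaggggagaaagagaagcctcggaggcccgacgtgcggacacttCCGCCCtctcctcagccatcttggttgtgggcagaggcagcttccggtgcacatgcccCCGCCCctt
PHLDA1: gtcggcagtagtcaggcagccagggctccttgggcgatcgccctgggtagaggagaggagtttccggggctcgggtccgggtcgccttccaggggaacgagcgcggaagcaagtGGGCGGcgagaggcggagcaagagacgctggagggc

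The promoters of IER5 and GADD45B each hold 2 CCAAT boxes and a TATA box at position -31 from the start. IER5L holds 2 CCAAT boxes and 2 GC boxes and no TATA box, and IER2 (3 GC boxes) and PHLDA1 (1 GC box) hold neither a CCAAT nor a TATA box. RefSeq windows of 300 bases (250 before to 50 after the start) were at hand for 7 of the 10 genes, and not for IER3, GADD45A and TRIB1. In these windows, GADD45G also had a TATA box, a CCAAT box and an E-box, and GADD45B had an E-box at position -168, outside the stretch shown. SGK1 has 3 RefSeq starts, and each of its windows held a TATA box on the plus or the minus strand. AP-1 sites (TGANTCA), cyclic AMP response elements (TGACGTCA) and CArG boxes were also searched on both strands, and none of these letters lay in the windows of the 7 genes. Of all 35116 RefSeq windows of this length, 34.6% held a CCAAT box, 45.0% a GC box, 13.7% a TATA box, 7.26% an E-box, 7.71% an AP-1 site, 1.85% a cyclic AMP response element and 1.29% a CArG box. These matches describe letters and are not evidence of binding. Whether they go with the response to cisplatin was not tested.

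After cisplatin, all 8 tested genes were higher in A2780 cells and all 8 were higher in Acis cells, and in each line the treated and control libraries of each gene did not overlap. A gene is said to have risen or fallen where the adjusted p of edgeR's quasi-likelihood test was under 0.05, and to have passed both thresholds where its fold was also at least 2. In A2780, 21.2% of all tested genes rose and 26.2% were higher without overlap. In Acis, 9.35% rose and 16.9% were higher without overlap, and 5.39% of genes rose in both lines. The share is larger among genes that span under 10000 bp, as all 8 do (1350 to 8046 bp, against a median of 24251 bp): 37.8% of such genes rose in A2780 and 12.4% in Acis. Both thresholds were passed by IER5, GADD45B, PHLDA1 and TRIB1 in A2780, against 4.14% of all genes, and by PHLDA1 alone of the 8 in Acis, against 1.64%. None of the 8 passed both as lower, against 1.48% of all genes in A2780 and 0.374% in Acis. In bulk RNA, fewer cells that express a gene and less RNA per cell cannot be told apart.

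**Figure D1:**
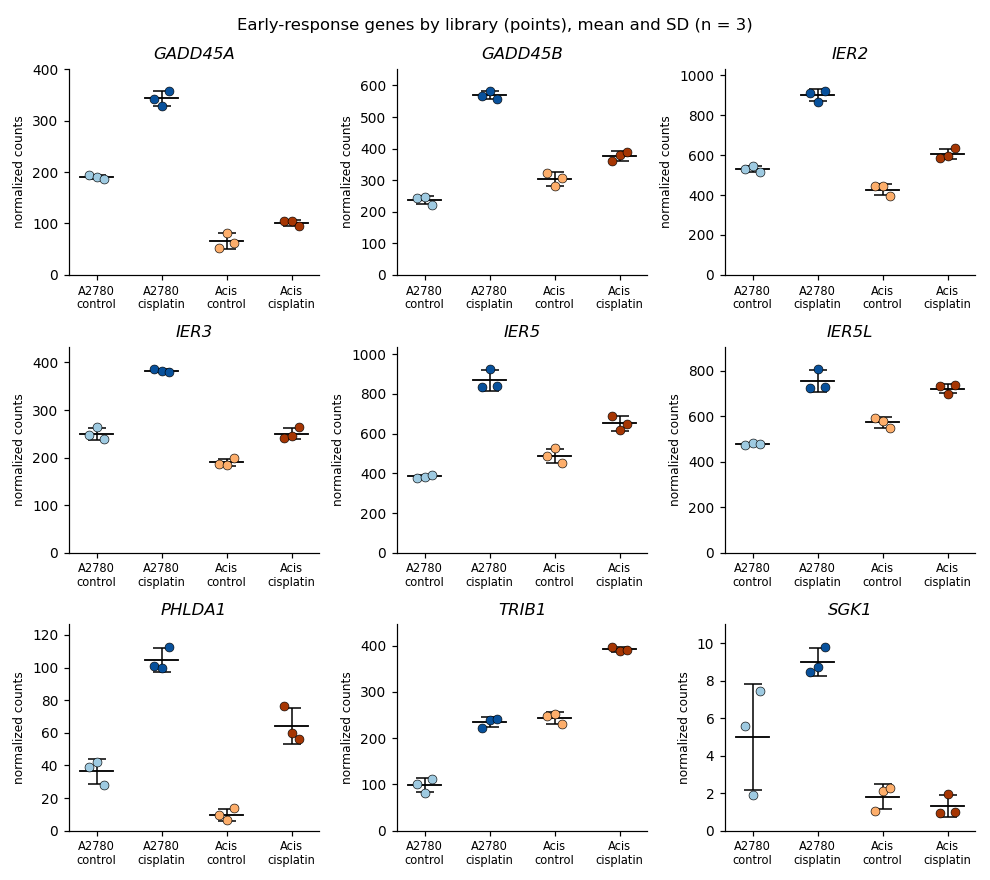
Normalized counts of the 9 genes with a row in the table (vertical axis from 0, own scale for each gene) in the 4 groups (horizontal axis). Points are the 3 libraries, and the lines and bars are the mean and SD. In both lines the cisplatin libraries of the 8 tested genes lie above the control libraries, TRIB1 in Acis control (230.1 to 253) is at the height of A2780 cisplatin (223 to 242), and SGK1 stays under 10 throughout.

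GADD45A (ENSG00000116717, chr1:67685201-67688334) was low in Acis cells whether or not cisplatin was added. Its normalized counts, which are counts scaled to the mean library size, were 194, 190.3 and 187 in A2780 control and 343, 328 and 358 in A2780 cisplatin. In Acis cells they were 53.1, 82.0 and 62.7 without the drug and 105, 105 and 94.3 with it. Every Acis library, treated or not, was thus below every A2780 library. GADD45A rose by 0.85 on the log2 scale in A2780 (SE 0.0707, 1.80-fold, edgeR adjusted p = 1.52e-10) and by 0.62 in Acis (SE 0.128, 1.54-fold, adjusted p = 0.000647). It was 2.88-fold lower in Acis than in A2780 without the drug (log2 -1.53, 95% confidence interval -1.75 to -1.30, adjusted p = 1.64e-12) and 3.38-fold lower after it (log2 -1.76, SE 0.0823, adjusted p = 1.35e-16). The test of the difference between the rises did not pass (-0.23 on the log2 scale, 95% confidence interval -0.54 to 0.08, adjusted p = 0.324).

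GADD45B (ENSG00000099860, chr19:2476122-2478259) followed another pattern. It had 244, 245 and 222 normalized counts in A2780 control and 567, 584 and 558 in A2780 cisplatin. In Acis cells it had 324, 281 and 308 without the drug and 361, 379 and 391 with it. The Acis libraries were above the A2780 ones without cisplatin and below them after it, with no overlap either way. GADD45B rose 2.40-fold in A2780 (log2 1.26, SE 0.0577, adjusted p = 1.95e-15) and 1.24-fold in Acis (log2 0.31, SE 0.0615, adjusted p = 0.000450). The difference between the rises, -0.95 (SE 0.0860, adjusted p = 3.96e-08), was the largest among the 8 genes in the negative direction. Control Acis cells had 1.28-fold more GADD45B (adjusted p = 6.24e-05) and treated Acis cells 1.51-fold less (adjusted p = 8.39e-11) than A2780 cells.

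IER2 (ENSG00000160888, chr19:13150411-13154911), a nuclear protein induced by growth factors, was among the genes with the smaller rises in A2780. It had 529.7, 545 and 515 normalized counts in A2780 control and 913, 866 and 924 in A2780 cisplatin. The Acis libraries had 444, 444 and 395 without the drug and 586, 598 and 635 with it. The groups stood apart in this order, Acis control, A2780 control, Acis cisplatin and A2780 cisplatin, with no overlap between neighbours. The rise was 1.70-fold in A2780 (log2 0.76, SE 0.0460, adjusted p = 3.31e-13) and 1.42-fold in Acis (log2 0.50, SE 0.0536, adjusted p = 6.65e-08). It was smaller in Acis by 0.26 on the log2 scale (-0.26, SE 0.0714, adjusted p = 0.0103).

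IER3 (ENSG00000137331, chr6:30743199-30744548), also called IEX-1 and tied to ERK signalling and cell survival, had the same order of levels but for an overlap. It had 247, 264 and 239 normalized counts in A2780 control and 387, 381 and 380.0 in A2780 cisplatin. In Acis cells it had 186, 185 and 199 without the drug and 242, 246 and 264 with it. Treated Acis libraries overlapped with untreated A2780 libraries, with means of 251 ± 11.9 and 250.1 ± 12.9 (SD, n = 3 each). IER3 rose 1.53-fold in A2780 (log2 0.61, SE 0.0573, adjusted p = 1.30e-09) and 1.32-fold in Acis (log2 0.40, SE 0.0699, adjusted p = 9.92e-05). The test of the difference between the rises did not pass (-0.21, 95% confidence interval -0.40 to -0.02, adjusted p = 0.152). With or without cisplatin, Acis cells had less of both genes than A2780 cells: IER2 by 1.24-fold (adjusted p = 2.33e-05) and 1.49-fold (adjusted p = 9.87e-12), and IER3 by 1.32-fold (adjusted p = 1.78e-05) and 1.53-fold (adjusted p = 3.73e-10).

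IER5 (ENSG00000162783, chr1:181088700-181092900) encodes a partner of the phosphatase PP2A that acts on the heat shock factor HSF1, and it has a single exon. It had 376, 383 and 394 normalized counts in A2780 control and 835, 927 and 839 in A2780 cisplatin. The Acis libraries had 486, 526 and 452 without the drug and 691, 618 and 646 with it. The 4 groups did not overlap, and the 2 Acis groups lay between the 2 A2780 groups. IER5 rose 2.26-fold in A2780 (log2 1.18, SE 0.0559, adjusted p = 4.15e-15) and 1.33-fold in Acis (log2 0.42, SE 0.0576, adjusted p = 4.41e-06). The rise was smaller in Acis (-0.76, SE 0.0816, adjusted p = 5.10e-07). Acis cells had 1.27-fold more IER5 without the drug (adjusted p = 3.64e-05) and 1.33-fold less with it (adjusted p = 4.78e-08).

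IER5L (ENSG00000188483, chr9:129175552-129178261), its single-exon relative, had 473, 482 and 477 normalized counts in A2780 control and 724, 810.0 and 729 in A2780 cisplatin. In Acis cells it had 593, 580.2 and 548 without the drug and 732, 699 and 736 with it. It is the only tested gene of the group whose treated libraries overlapped between the lines. IER5L rose 1.58-fold in A2780 (log2 0.66, SE 0.0492, adjusted p = 1.82e-11) and 1.26-fold in Acis (log2 0.33, SE 0.0489, adjusted p = 1.09e-05), with a smaller rise in Acis (-0.33, SE 0.0698, adjusted p = 0.00134). It was 1.20-fold higher in Acis control than in A2780 control (adjusted p = 9.51e-05). After cisplatin the difference between the lines was -0.06 on the log2 scale (95% confidence interval -0.15 to 0.03, adjusted p = 0.239). With library totals in place of TMM factors this value was -0.12 (adjusted p = 0.0266).

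PHLDA1 (ENSG00000139289, chr12:76025447-76031776) was the gene of the group with the largest fold after cisplatin in either line. It had 39.2, 42.3 and 27.7 normalized counts in A2780 control and 101, 99.7 and 113 in A2780 cisplatin. The Acis libraries had 9.55, 6.39 and 13.7 without the drug and 76.8, 60.0 and 56.0 with it. The treated Acis libraries lay between untreated and treated A2780 libraries without overlap, and the raw counts of Acis control summed to 27 over its 3 libraries. PHLDA1 rose 6.51-fold in Acis (95% confidence interval 2.21 to 3.19 on the log2 scale, adjusted p = 2.56e-09) and 2.84-fold in A2780 (log2 1.51, SE 0.147, adjusted p = 2.94e-09). It is the only one of the 8 genes with a larger log2 change in Acis (1.20, SE 0.314, adjusted p = 0.00804), and without Acis control replicate 2, the library with its lowest level, the difference was 0.96 and did not pass (adjusted p = 0.0523). Acis cells had 3.72-fold less PHLDA1 than A2780 cells without cisplatin (log2 -1.89, SE 0.274, adjusted p = 9.96e-07) and 1.62-fold less with it (log2 -0.70, SE 0.128, adjusted p = 2.94e-05).

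TRIB1 (ENSG00000173334, chr8:125430358-125438403) was the only tested gene of the group above A2780 in Acis cells both without and with cisplatin. It had 102, 81.7 and 112 normalized counts in A2780 control and 223, 240.0 and 242 in A2780 cisplatin. In Acis cells it had 248, 253 and 230.1 without the drug and 398, 388 and 391 with it. Untreated Acis cells overlapped with treated A2780 cells, with means of 244 ± 12.2 and 235 ± 10.2 (SD, n = 3 each). TRIB1 was 2.49-fold higher in Acis control than in A2780 control (log2 1.32, SE 0.0906, adjusted p = 6.84e-13) and 1.67-fold higher in Acis cisplatin than in A2780 cisplatin (log2 0.74, SE 0.0633, adjusted p = 6.30e-11). It rose 2.39-fold in A2780 (log2 1.26, SE 0.0891, adjusted p = 7.19e-12) and 1.61-fold in Acis (log2 0.68, SE 0.0648, adjusted p = 9.91e-09), with a smaller log2 change in Acis (-0.58, SE 0.113, adjusted p = 0.000658). Of the 8 genes it alone passed both thresholds as higher after cisplatin in A2780 and higher in Acis control than in A2780 control, a pattern held by 0.514% of all tested genes.

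SGK1 (ENSG00000118515, chr6:134169248-134318112) had 6, 2 and 7 raw counts in A2780 control, 9, 9 and 10 in A2780 cisplatin, 1, 2 and 2 in Acis control and 1, 2 and 1 in Acis cisplatin. Every treated A2780 library was above every other library. With these counts no fold is given. An exact two-sided permutation test of 3 against 3 libraries cannot go below 0.1, which it gave for cisplatin in A2780 and for the treated lines, with 0.2 for cisplatin in Acis and 0.3 for the controls. In edgeR without a filter on low counts, SGK1 was lower in treated Acis than in treated A2780 cells (adjusted p = 0.000148, and 0.00850 in DESeq2), and did not pass for cisplatin in A2780 (adjusted p = 0.140), cisplatin in Acis (adjusted p = 0.854) or between the controls (adjusted p = 0.0789).

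Between genes, levels were compared per kilobase of annotated exon. In A2780 control, IER3 (185 ± 9.58), IER5L (176 ± 1.61) and IER2 (172 ± 4.82) had the highest normalized counts per kilobase (mean ± SD, n = 3) and in this order each overlapped with its neighbour. GADD45B (111 ± 6.16), GADD45A (98.9 ± 1.89) and IER5 (91.4 ± 2.15) followed without overlap, then TRIB1 (24.0 ± 3.76), PHLDA1 (6.16 ± 1.30) and SGK1 (0.501 ± 0.283). In Acis cisplatin the order was IER5L (267 ± 7.62), IER2 (197 ± 8.31), IER3 (186 ± 8.80), GADD45B (176 ± 7.08), IER5 (155 ± 8.74), TRIB1 (95.7 ± 1.31), GADD45A (52.7 ± 3.21), PHLDA1 (10.9 ± 1.86) and SGK1 (0.131 ± 0.0578). There IER2 and IER3 overlapped, as did IER3 and GADD45B. TRIB1 thus stood below GADD45A in A2780 and above it in Acis.

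**Figure D2:**
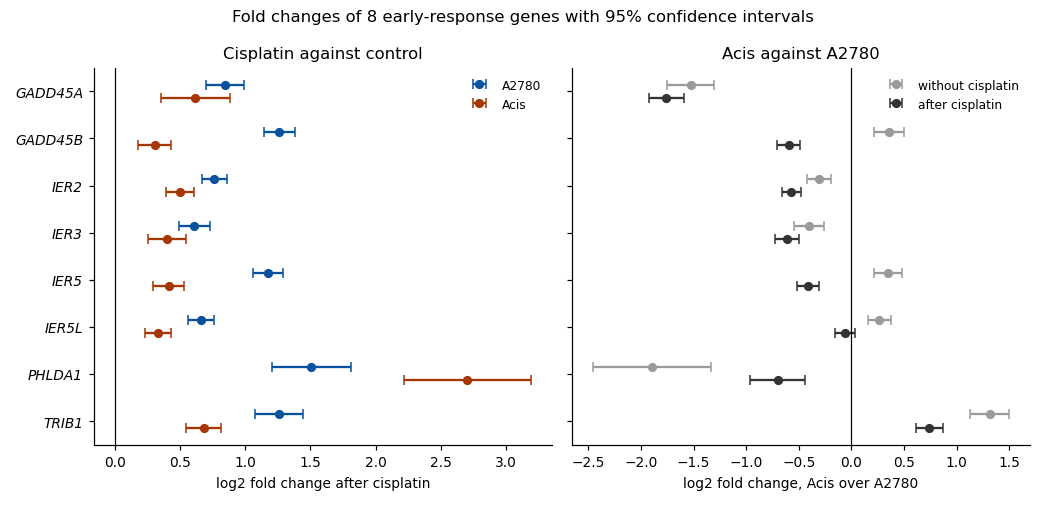
Log2 fold changes of the 8 tested genes (horizontal axes) with 95% confidence intervals computed from edgeR's log2 fold change and F statistic. On the left, cisplatin against control in A2780 and in Acis, and on the right, Acis against A2780 without and after cisplatin. All values on the left are above 0, PHLDA1 alone has the larger value in Acis (6.51-fold against 2.84-fold), and on the right IER5 and GADD45B lie on either side of 0 before and after cisplatin.

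Compared with A2780 control, Acis control cells had higher TRIB1, GADD45B, IER5 and IER5L and lower PHLDA1, GADD45A, IER3 and IER2, so that 4 of the 8 were higher and 4 lower, against 28.2% and 30.6% of all tested genes. Both thresholds were passed by TRIB1 as higher (6.99% of all genes) and by GADD45A and PHLDA1 as lower (12.2%). After cisplatin 6 of the 8 were lower in Acis (31.2% of all genes), TRIB1 was higher (31.8%) and IER5L did not pass. GADD45A alone passed both thresholds as lower there (11.9%), and none as higher (7.28%). The comparisons of the lines and of the drug share their control or treated libraries and are not independent of each other.

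The change after cisplatin was smaller in Acis for GADD45B, IER5, TRIB1, IER5L and IER2 and larger for PHLDA1, by the interaction of line and drug. Of all tested genes, 5.48% had a more negative and 13.4% a more positive change in Acis. With library totals in place of TMM factors, the more positive genes made up 48.4% of the genes with a difference in place of 70.9%, while the 6 genes kept their direction. On the linear scale (difference of mean normalized counts ± SE, n = 3 and 3), the order of the genes was another. The rise in Acis was 21.9% of that in A2780 for GADD45B (72.7 ± 15.2 against 332 ± 10.7) and 23.2% for GADD45A (35.5 ± 9.22 against 153 ± 8.99). GADD45A, which did not pass on the log2 scale, is therefore next to GADD45B on the linear scale, from a lower level in Acis control. The rise was 33.8% for IER5, 45.6% for IER3, 48.2% for IER2 and 53.6% for IER5L. For PHLDA1 it was 79.7% (54.4 ± 6.70 against 68.2 ± 6.08) and for TRIB1 109% (148 ± 7.70 against 136 ± 10.7). On the log2 scale the changes of these genes differed between the lines in opposite directions. No test was made on the linear scale.

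**Figure D3:**
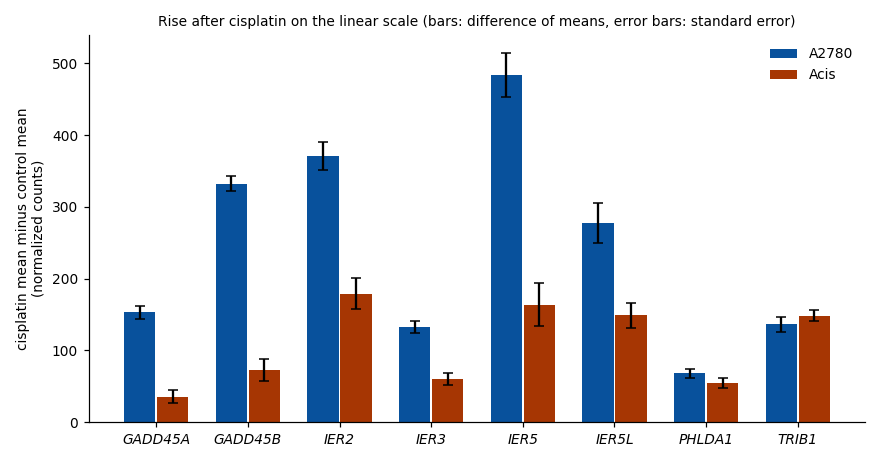
Difference between the cisplatin mean and the control mean in normalized counts (vertical axis from 0) for the 8 tested genes in A2780 and Acis. Error bars are the standard error of the difference over 3 and 3 libraries. The bars of PHLDA1 and TRIB1 are close in height between the lines, and those of GADD45A and GADD45B in Acis are 23.2% and 21.9% of the A2780 bars.

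Among all tested genes, the log2 changes of the 8 in A2780 lay between the percentile 90.8 (IER3) and the percentile 98.0 (PHLDA1), and in Acis between 84.4 (GADD45B) and 99.9 (PHLDA1). GADD45B stood at percentile 97.1 in A2780 and at the lowest place of the 8 in Acis. The median log2 change of the 8 was 1.01 in A2780 and 0.46 in Acis, beside -0.01 and 0.01 over all tested genes. With library totals in place of TMM factors the median of all genes in A2780 was 0.10, and genes that rose made up 63.0% of the changed genes in A2780 in place of 42.9%, and 61.9% in Acis in place of 42.9%. All 8 genes rose in both lines under that scaling too.

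**Figure D4:**
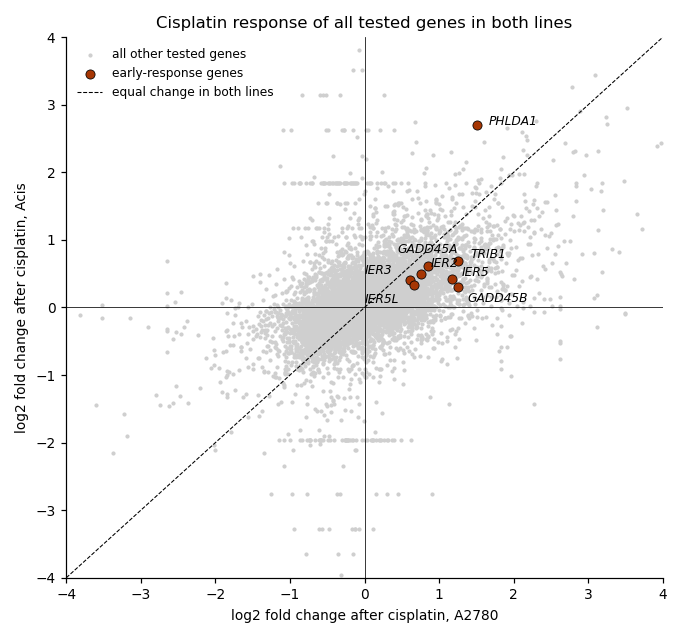
Log2 fold change after cisplatin in A2780 (horizontal axis) and in Acis (vertical axis) of all tested genes in grey, with 13 genes outside the axes left out, and of the 8 early-response genes as labelled points. The dashed line marks equal change, and rows of grey points at 1 height are genes with very few counts in Acis. Of the labelled genes, PHLDA1 lies above the line and the other 7 below it.

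Of 33 other early-response genes (the FOS, JUN, EGR, NR4A, KLF and DUSP families among them), 31 were tested. This list, like those below, was chosen with earlier results of these data known, so its counts are a description. In A2780, 27 rose and 1 fell, with a median of 1.18 on the log2 scale. The smallest adjusted p-values were those of FOS (3.49), EGR1 (1.84) and ATF3 (2.21), all transcription factors. In Acis, 21 rose and 1 fell, with a median of 0.41, and 7 passed both thresholds as higher. FOS (1.87), the antiproliferative gene BTG2 (1.17) and ARC (0.72) had the smallest adjusted p-values there, not the largest changes. Of all tested genes, 21.2% rose in A2780 and 9.35% in Acis. The change was more negative in Acis for 20 of the 31 (5.48% of all genes) and more positive for none, in edgeR's test of the interaction (0 also at an unadjusted p under 0.05 and in DESeq2). EGR1 (-1.57), FOS (-1.62) and JUN (-2.56) had the smallest adjusted p-values of that test. Of the control levels, 15 were higher and 8 lower in Acis, against 28.2% and 30.6% of all genes.

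Of 25 p53 target genes 24 were tested, and 16 rose and 2 fell in A2780, while 16 rose and 1 fell in Acis. The medians were 0.26 and 0.25 on the log2 scale. The shares of all tested genes that rose and fell were 21.2% and 28.2% in A2780 and 9.35% and 12.5% in Acis. CDKN1A, which encodes the cell cycle inhibitor p21 that GADD45 proteins bind, was, like GADD45A, lower in Acis without cisplatin (log2 -1.80, SE 0.0666, adjusted p = 5.64e-19) and with it (log2 -1.83, SE 0.0497, adjusted p = 4.63e-22), and rose in A2780 (0.85, SE 0.0429) and in Acis (0.82, SE 0.0776). PLK2, a polo-like kinase, was higher in Acis control (log2 2.02) and had a more negative change in Acis (-1.62, adjusted p = 3.05e-14). The change was more positive in Acis for ZMAT3 (0.85, adjusted p = 8.09e-08) and MDM2 (0.37, adjusted p = 3.21e-05). In all it was more positive for 3 of the 24, near the share of all tested genes (13.4%). It was more negative for 4 of the 24 (9 with library totals), against 5.48% of all genes. In controls, 5 of the 24 were higher and 12 lower in Acis, against 28.2% and 30.6% of all genes.

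Of 16 genes of the p38 and JNK cascade, on which GADD45 proteins act, 2 rose and 9 fell in A2780, and none rose and 3 fell in Acis by edgeR's test (1 rose at an unadjusted p under 0.05, and 0 in DESeq2). Of all tested genes, 28.2% fell in A2780 and 12.5% in Acis, so that the share that fell in Acis was little above that of all genes. The authors report that genes that fell after cisplatin were longer. Shares among genes as long as these 16 were not counted. DESeq2 called none as higher in A2780 in place of the 2. The change was more positive in Acis for 7 of the 16, against 4 with library totals and 2 in DESeq2. Over all tested genes the share was 13.4%. The number of such genes moved too, from 2110 to 1468 with library totals and 1100 in DESeq2. MAP3K4, the kinase that binds GADD45 proteins, fell by 0.42 on the log2 scale in A2780 (adjusted p = 1.15e-06) and by 0.41 in Acis (adjusted p = 1.19e-05). MAP2K6, a kinase that activates p38, fell by 0.71 in A2780 and was far lower in Acis control than in A2780 control (log2 -4.99, SE 0.0859, adjusted p = 1.42e-26). MAP3K5 was higher in Acis control (log2 1.47).

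Of 6 relatives (TRIB2, TRIB3, SGK2, SGK3, PHLDA2 and PHLDA3), 4 were tested. PHLDA2 was the only relative that rose (2 rose in A2780 with library totals in place of TMM factors), by 0.95 in A2780 (SE 0.136, adjusted p = 1.76e-06) and by 0.53 in Acis (SE 0.0886, adjusted p = 5.95e-05). Unlike PHLDA1, it was higher in Acis control than in A2780 control (log2 1.54, SE 0.126, adjusted p = 2.45e-11). TRIB2 (3.15, SE 0.451, adjusted p = 8.52e-07) and SGK3 (1.42, SE 0.123, adjusted p = 8.32e-11) were higher in Acis control too. These were 3 of the 4 tested relatives, against 28.2% of all genes. The share of all genes that rose after cisplatin was 21.2% in A2780 and 9.35% in Acis. Of 17 partner and target genes of the group's proteins, 16 were tested, and 6 rose and 8 fell in A2780, while 3 rose and 4 fell in Acis, beside the shares of all genes given above. The 6 were 3 in DESeq2 and without A2780 control replicate 2, and the 4 were 2 with library totals and without Acis cisplatin replicate 3. CEBPA, whose protein TRIB1 brings to COP1, rose by 0.76 in A2780 (adjusted p = 2.00e-08) and by 0.42 in Acis (adjusted p = 0.000232). HSF1, the factor that IER5 acts on, was higher in Acis control (log2 0.47, adjusted p = 2.46e-09), and RICTOR, a subunit of the complex that activates SGK1, fell by 0.71 in A2780.

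Across the 12 libraries the 8 genes followed more than a single pattern. These values are Pearson's r of the log2 of normalized counts plus 1 and describe libraries that share their group, so they carry no test. IER2 and IER3 were alike (r = 0.97), as were IER5 and GADD45B (0.96), IER5 and IER5L (0.96), IER3 and GADD45A (0.91) and IER5L and GADD45B (0.91). TRIB1 was nearest to IER5L (0.81), and its r with GADD45A was -0.35. Both TRIB1 and GADD45A rose after cisplatin in each line, while TRIB1 was higher and GADD45A lower in Acis than in A2780. Among 10890 other genes with a mean of at least 50 counts, the genes most like each were KLF11 and FAM53C for IER2 (0.99 and 0.99), H2BC19P and HERPUD1 for IER3 (0.99 and 0.99), RHOB and DUSP1 for IER5 (0.99 and 0.98), and MAD2L1BP and TRAF4 for IER5L (0.98 and 0.98). They were ABT1 and ATXN7L2 for GADD45A (0.99 and 0.99), H2AJ and DUSP1 for GADD45B (0.98 and 0.98), ALOX12-AS1 and THUMPD3-AS1 for PHLDA1 (0.98 and 0.97), and PMAIP1 and DUSP2 for TRIB1 (0.99 and 0.98). DUSP1, a phosphatase of MAP kinases, is thus on the lists of both IER5 and GADD45B.

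Accessible chromatin was read from 1 deposited list of ATAC-seq peaks per condition, with 34979 peaks for A2780 control, 32159 for A2780 cisplatin, 24485 for Acis control and 27321 for Acis cisplatin. A list keeps peaks found in every replicate, of which there were 3 for the controls and 2 after cisplatin, so the lists allow no test between conditions. A peak within 500 bp of the annotated start was listed for 8 of the 10 genes in A2780 control, A2780 cisplatin and Acis cisplatin and for 7 in Acis control. Over all tested genes with a gene model the shares were 69.7%, 70.6%, 67.3% and 63.4%, and 60.2% had a promoter peak in all 4 lists. The 10 genes include SGK1 and GADD45G, which were not among the tested genes and had no such peak. All 8 tested genes of the group had one in every list, but for PHLDA1 in Acis control.

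The gene that differed was PHLDA1. Its start lay in a peak with a fold enrichment over background of 10.3 in A2780 control, 11.7 in A2780 cisplatin and 8.55 in Acis cisplatin, and no peak was listed there in Acis control, the condition with its lowest RNA level. Of all tested genes, 3.37% had a promoter peak in every list but that of Acis control, and 5.25% had one in Acis cisplatin and not in Acis control. The Acis cisplatin peak spanned chr12:76031536-76032466, and the bases printed for PHLDA1 lie inside it.

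The other 7 genes had a promoter peak in all 4 lists, and each had a higher fold enrichment in Acis control than in A2780 control. The share of all promoter peaks that were higher there was not counted, and values of similar size stood lower in the Acis list. The 16.6 of IER5 was at percentile 81.7 of the peaks of A2780 control, and its 17.4 at percentile 72.4 of those of Acis control. The percentile was also lower in Acis control for TRIB1 (75.6 and 71.9) and IER3 (23.0 and 20.5). It was higher there for IER5L (42.7 and 58.7), GADD45B (22.8 and 34.6), IER2 (7.12 and 12.7) and GADD45A. GADD45A had fold enrichments of 23.0 and 14.5 in A2780 without and with cisplatin, and of 27.3 and 25.5 in Acis. In the control lists these were at percentiles 96.9 and 98.0. GADD45B had 6.39, 7.18, 10.0 and 7.92 in that order. IER5 had 16.6, 14.9, 17.4 and 21.1, and TRIB1 had 14.9, 16.2, 17.3 and 20.7. IER2 had the lowest values, 4.45, 3.74, 5.93 and 6.04, IER3 had 6.41, 6.19, 7.47 and 7.19, and IER5L had 8.85, 7.53, 14.5 and 10.8. The lists were made one by one, so these values are set side by side and not compared by a test.

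SGK1 and GADD45G had no peak at the annotated start. SGK1 has 3 RefSeq starts. At chr6:134174866, the innermost of them, a peak was listed in A2780 cisplatin (fold enrichment 5.55) and Acis cisplatin (6.08) and in neither control list. The -log10 q of these peaks was 11.3 and 8.46, under the stricter threshold of 20. Another peak inside the gene, at chr6:134178433-134178876 in A2780 control, had a fold enrichment of 12.7 and a -log10 q of 66.0. Peaks at nearly the same place had 8.21 in A2780 cisplatin and 7.31 in Acis cisplatin, with none listed in Acis control. The share of all genes with such peaks in the treated lists alone was not counted. A change with cisplatin was not tested. GADD45G had a peak at positions -1953 to -1613 from its start in A2780 control (6.62), and peaks at nearly the same place in Acis control (8.30) and Acis cisplatin (5.98).

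**Figure D5:**
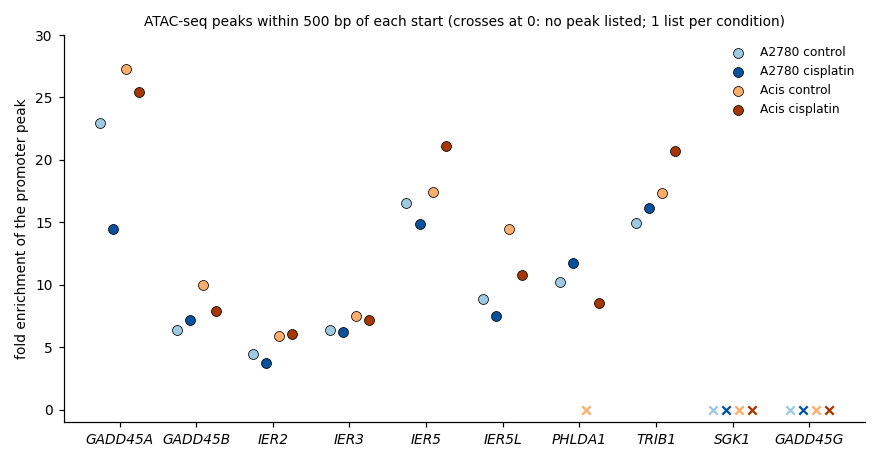
Fold enrichment over background of the ATAC-seq peak within 500 bp of each gene's annotated start (vertical axis) in the list of each condition. Crosses at 0 mark lists without a peak. PHLDA1 has a peak in 3 lists and none in Acis control, SGK1 and GADD45G have none, and the other 7 genes have one in every list.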

How the data were processed

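RNA-seq and ATAC-seq of A2780 and Acis cells were used, untreated or after cisplatin. Raw counts per gene were deposited by the authors, made per the methods by STAR 2.7.3 alignment of stranded total RNA libraries depleted of ribosomal RNA and by HTSeq 0.11.1 after removal of PCR duplicates, which can lower the counts of short, highly expressed genes. The table holds genes with at least 10 counts in all. Peaks were deposited by the authors after Bowtie2 2.4.1 and MACS2, each with a fold enrichment over background, and the authors also deposited a -log10 q value.

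The counts were fitted with edgeR 4.0.16 in R 4.3.3 (TMM, factors 0.965 to 1.05, default filter on low counts, quasi-likelihood test over 12 libraries and 4 groups, Benjamini-Hochberg adjustment over 15760 genes), tested on simulated data. Calls used an adjusted p under 0.05, and also an absolute log2 fold change of 1 where both thresholds are named. Standard errors and confidence intervals of edgeR's log2 fold changes were computed from the fold change and the F statistic. They are separate from the p-value of the test and can be narrower than it implies. Alternatives were DESeq2 1.42.0, other scalings, filters and samples, the replicate block and merged replicates. Gene models were from GENCODE 44 (GRCh38), read with Python 3.11.15 and pandas 2.3.3. Exact permutation tests were two-sided.

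The members and gene lists were chosen with earlier results of these data known. By rule, all members are named, with at most 3 genes of smallest adjusted p from each list and comparison and the 2 genes nearest each member. No sample was left out of the counts, and excision repair was not analysed here.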

Additional observations from a re-analysis of the deposited data

Results flagged for a closer look

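The change after cisplatin differed between the lines for 6 of the 8 tested genes, by edgeR's test of the interaction of line and drug (log2 change in Acis minus that in A2780). It was -0.95 for GADD45B, -0.76 for IER5, -0.58 for TRIB1, -0.33 for IER5L and -0.26 for IER2, all with a rise in each line that was smaller in Acis. It was 1.20 for PHLDA1, with the larger rise in Acis, and this call rested on Acis control replicate 2, without which it was 0.96 (adjusted p = 0.0523). Groups of 3 libraries were too small to look for a library far from the others.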

How the results depend on the processing

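Of 792 values of single genes under the alternatives, 789 kept their direction and their side of the threshold and none reversed. With library totals in place of TMM, the interaction of IER3 (-0.27, adjusted p = 0.0499) and the treated difference of IER5L (-0.12, adjusted p = 0.0266) passed. Without Acis control replicate 2, that of PHLDA1 did not (0.96, adjusted p = 0.0523), so that over the libraries left out in turn members with a more positive change in Acis numbered 0 to 1. Members lower in treated Acis past both thresholds were 2 in place of 1 with no filter and in DESeq2, where SGK1 was added. The other 367 of 370 counts of the group's genes were within 1.5 times of the main count. Replicate numbers mark no pairs (r of -0.07 to 0.11 over 18 pairs with the same number), and the replicate block changed no call of the group: all 8 genes rose in both lines, with GADD45B at 1.26 in A2780. Merging the closest replicates in 3 groups changed none either.

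Counts over all genes moved more. In A2780, 3348 genes rose, against 5242 with library totals and 2007 in DESeq2. Past both thresholds, 652 rose there, against 1199 with no filter, and 233 fell, against 153 with library totals and 500 with no filter. In Acis, 1474 rose, against 2315 with library totals and 533 in DESeq2. Past both thresholds, 258 rose, against 143 in DESeq2, and 59 fell, against 110 with no filter and 38 with a mean of at least 10 counts. With no filter, genes lower in Acis past both thresholds were 2942 in place of 1917 without cisplatin and 3080 in place of 1883 with it. The interaction was more positive for 2110 genes, against 1100 in DESeq2. It was more negative for 864, against 1568 with library totals, 298 in DESeq2, 525 without Acis control replicate 1 and 550 without Acis cisplatin replicate 2. The causes were not tested. Of the gene lists in A2780, the partners that rose were 6, against 3 in DESeq2 and without A2780 control replicate 2, and the p38 and JNK genes that rose were 2, against 1 without A2780 control replicate 2 and 0 without A2780 cisplatin replicate 1. In Acis, the partners that fell were 4, against 2 with library totals and without Acis cisplatin replicate 3, and 1 p38 or JNK gene rose with library totals and without replicate 1 of Acis control or of Acis cisplatin. The p38 and JNK genes with a more positive interaction were 7, against 3 and 4 without Acis cisplatin replicates 1 and 2. Peaks within 2000 bp in place of 500 bp were listed for 9, 8, 8 and 9 of the 10 genes in A2780 control, A2780 cisplatin, Acis control and Acis cisplatin, and a -log10 q of at least 20 left the main counts as they were. With 27 counts in all, PHLDA1 in Acis control is the least precise value among the tested genes.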
